A study of Mus musculus with 17 samples.

Results

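The genes described here are 9 genes of polyamine metabolism, Odc1, Amd1, Srm, Sms, Oaz1, Oaz2, Azin1, Sat1 and Smox, chosen by symbol from the 35321 gene symbols of a bulk RNA-seq count table. The rule behind the choice also named Odc1 for its antibody-by-time difference, and that difference is built from all the LPS-injected libraries. The values of Odc1 are therefore given as a description with no p-value, against PBS too, and counts of genes that passed are of the other 8. All 9 symbols were found, and all 9 were among the 14920 genes with enough reads to be tested. The 17 libraries were made from polyA RNA of bone marrow cells sorted as hematopoietic stem and progenitor cells (HSPC), the cells that renew the blood lineages. All mice were wild-type C57BL/6J mice injected intraperitoneally. PBS was given to the 5 libraries of the control group, titled day 0. LPS was given alone or together with an IL-10 receptor blocking antibody, and each of these was sampled after 24 h and after 72 h, with 3 libraries per group. LPS is a bacterial outer membrane component that activates TLR4, and IL-10 is a cytokine that restrains such inflammatory responses. The design has no group given the antibody without LPS, and the labels used here do not give the sort gates. Neither do they say whether a library came from 1 mouse or from a pool, so the p-values measure the spread between libraries, which may be technical in part.

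Polyamines are small positively charged molecules that bind RNA and other nucleic acids and are required by growing cells. Ornithine decarboxylase (Odc1) makes putrescine from ornithine, S-adenosylmethionine decarboxylase (Amd1) supplies the aminopropyl donor, and spermidine synthase (Srm) and spermine synthase (Sms) add aminopropyl groups to give spermidine and then spermine. The antizymes (Oaz1, Oaz2) bind ornithine decarboxylase and direct it to the proteasome, and antizyme inhibitor (Azin1) resembles the enzyme and sequesters antizyme. Spermidine/spermine acetyltransferase (Sat1) and spermine oxidase (Smox) work in the opposite direction, breaking down the larger polyamines. Spermidine is also the substrate for hypusine, a modified residue of the translation factor eIF5A.

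In the GENCODE M21 annotation of GRCm38, the synthesis genes are Odc1 at chr12:17544794-17551505 on the plus strand, Amd1 at chr10:40287458-40302186 on the minus strand, Srm at chr4:148591503-148594993 on the plus strand and Sms at chrX:157443855-157492287 on the minus strand. The regulators are Oaz1 at chr10:80826656-80829290 (plus), Oaz2 at chr9:65668001-65690300 (plus) and Azin1 at chr15:38487427-38519266 (minus). The catabolic genes are Sat1 at chrX:155213132-155216449 (minus) and Smox at chr2:131491496-131525922 (plus). Values are exonic read counts per gene. Amd1 has a near-identical copy, and 78.1% of its 50-base stretches also occur in the transcripts of other genes, most of them in Amd2. The reads counted to Amd2 were 0.615% to 5.73% of those counted to Amd1 in the same library. How shared reads were split or dropped is not given in the sources used here, so the part of each copy in the Amd1 count is not known. For Odc1 the shared part was 24.3%, for Oaz1 21% and for Sms 17.5%.

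The promoters of 3 synthesis genes that moved together, and of Oaz1, which did not pass the test in any comparison, are shown to let their sequences be compared. They are from RefSeq (GRCm38.p6), printed 5′ to 3′ on the gene's strand, ending before the first annotated exon. They lie at chr12:17544623-17544793 (Odc1), chr10:40302189-40302438 (Amd1), chrX:157492288-157492537 (Sms) and chr10:80826406-80826655 (Oaz1). Capitals mark a match, on either strand, to the E-box CACGTG, the GC box GGGCGG or the TATA box TATANAA.
Odc1: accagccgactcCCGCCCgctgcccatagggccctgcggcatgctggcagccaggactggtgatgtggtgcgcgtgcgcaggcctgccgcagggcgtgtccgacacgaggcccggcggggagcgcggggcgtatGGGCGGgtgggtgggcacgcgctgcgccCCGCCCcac
Amd1: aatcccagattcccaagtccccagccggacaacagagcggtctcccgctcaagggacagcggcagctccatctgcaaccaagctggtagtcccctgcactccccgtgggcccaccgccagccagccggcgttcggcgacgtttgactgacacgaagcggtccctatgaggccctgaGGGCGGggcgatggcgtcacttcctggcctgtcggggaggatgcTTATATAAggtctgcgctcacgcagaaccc
Sms: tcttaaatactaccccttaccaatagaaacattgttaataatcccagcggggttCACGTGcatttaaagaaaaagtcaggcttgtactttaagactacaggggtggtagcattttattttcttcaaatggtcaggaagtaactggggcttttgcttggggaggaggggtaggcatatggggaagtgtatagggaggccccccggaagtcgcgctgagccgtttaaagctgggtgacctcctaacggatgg
Oaz1: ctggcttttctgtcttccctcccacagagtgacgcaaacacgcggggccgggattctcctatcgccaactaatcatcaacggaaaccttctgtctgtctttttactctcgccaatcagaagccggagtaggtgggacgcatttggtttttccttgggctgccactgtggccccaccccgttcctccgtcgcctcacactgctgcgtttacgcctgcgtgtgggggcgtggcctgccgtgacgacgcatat
The Odc1 stretch of 171 bases holds 3 GC boxes and no E-box. Its full window of 250 bases, which runs past the start of the first annotated exon, holds 4 GC boxes and no E-box. Amd1 holds 1 GC box and 2 overlapping TATA matches, 1 on each strand, and this Sms window holds 1 E-box and no GC box. Sms has a second window, not printed, at chrX:157491369-157491618, which holds 4 GC boxes and no E-box. The Oaz1 window holds none of these motifs. Among 32851 RefSeq windows of 250 bases before a gene start, 6.02% hold the E-box, 32.7% the GC box and 10.4% the TATA box. Windows were found for 7 of the 9 genes, and a match is a string of letters, not evidence that a factor binds there.

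Library totals ran from 10516722 to 16006001 counts. The TMM scaling factors lay between 0.947 and 1.12, apart from library 1 of LPS 24 h, which stood apart at 0.799, and the member results and list counts that rest on it are given with and without it. None of the 8 HSPC markers listed (Kit, Cd34, Flt3, Ly6a, Mecom, Hlf, Procr, Meis1) was at 0 in all libraries of any group. Their summed level was 1571 to 2332 CPM (counts scaled to a common library total, corrected by the TMM factors) in PBS, 922 to 1089 in LPS 24 h, 1042 to 1368 in LPS plus antibody 24 h, 1641 to 2174 in LPS 72 h and 1079 to 1707 in LPS plus antibody 72 h. The summed monocyte and macrophage markers ran from 314 to 2203 CPM in PBS and from 99.2 to 113 in LPS 24 h, and the B lymphoid markers from 375 to 1323 CPM and from 70.5 to 91.1. In that comparison 8 of 8 monocyte and macrophage markers, 6 of 8 HSPC, 2 of 7 B lymphoid, 2 of 6 T and NK, 2 of 4 megakaryocyte and 1 of 8 erythroid markers fell by the edgeR test, and 1 of 8 proliferation markers rose. The erythroid list as a whole did not fall: 5 of its 8 markers had a log2 change above 0 and 3 below (median 1.29). Its summed level was 145 to 298 CPM in PBS and 289 to 644 CPM in LPS 24 h. Summed proliferation markers overlapped between all groups, at 1832 to 2638 CPM in PBS and 2080 to 2425 in LPS 24 h. The part of these differences in the results was not tested, and in sorted bulk cells a smaller share of one cell type and less RNA per cell cannot be told apart.

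Per kilobase of exon, Oaz1 had the highest level of the 9 genes in PBS, at 154 ± 21.8 CPM per kb (SD, n = 5). Srm at 71.5 ± 24.8 and Odc1 at 65.7 ± 18.8 CPM per kb came next and did not differ beyond their spread. Amd1 had 39.7 ± 3.52 CPM per kb, and its lowest library met the highest of Sat1, at 23.1 ± 7.92. Azin1 had 21 ± 1.41, within the range of Sat1, followed by Oaz2 at 15.5 ± 0.963, Sms at 11.9 ± 1.19 and Smox at 5.65 ± 0.894 CPM per kb. The antizyme that destabilises ornithine decarboxylase was thus the most abundant of these transcripts in unstimulated cells, and the spermine oxidase transcript the least.

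The first question was what LPS did to these transcripts after 24 h. Srm, Amd1 and Sms rose, Srm by about 3-fold and the others by less, Smox and Oaz2 fell, and Odc1 was about 3-fold higher by description. In PBS, Odc1 had 328, 162, 187, 233 and 208 CPM in libraries 1 to 5. In LPS 24 h it had 904, 495 and 601.5 CPM, and every library lay above every PBS library. The log2 difference of Odc1 was 1.58 (SE 0.227, 2.98-fold). Srm, which turns putrescine into spermidine, had 178, 86.1, 92.4, 128 and 86.8 CPM in PBS and 551, 248 and 312 CPM in LPS 24 h. It rose by 1.70 on the log2 scale (SE 0.29, 3.24-fold, edgeR quasi-likelihood adjusted p = 0.000794). In both genes the high value was library 1 of LPS 24 h, the one with the low scaling factor. Without it, the log2 difference of Odc1 was 1.31 and Srm rose by 1.31 (adjusted p = 0.00768).

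Amd1 had 161, 128, 137, 142 and 134.5 CPM in PBS and 287, 241 and 224 CPM in LPS 24 h, with no overlap. The rise was 0.84 (SE 0.131, 1.78-fold, adjusted p = 0.000569). Sms had 79.7, 67.8, 62.3, 77.4 and 69.1 CPM in PBS and 152, 114 and 114 CPM in LPS 24 h, a rise of 0.83 (SE 0.127, 1.77-fold, adjusted p = 0.000537). Without library 1 of LPS 24 h these rises were 0.74 and 0.69, both still past the threshold. All 3 genes of the aminopropyl steps thus rose, Amd1 and Sms by a smaller factor than Srm.

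Of the 8 genes other than Odc1, 5 passed the threshold (adjusted p below 0.05) in LPS 24 h against PBS, 3 higher and 2 lower, where 37.6% of all tested genes did, 19.1% higher and 18.5% lower. Among the 8, the log2 change was positive for Srm, Amd1, Sms, Azin1 and Oaz1 and negative for Oaz2, Sat1 and Smox. The median log2 change over all tested genes was -0.03. When library 1 of LPS 24 h was left out, 3 of the 8 passed, Srm, Amd1 and Sms. Every LPS library lay above every PBS library for 4 of the 8 genes (Srm, Amd1, Sms and Azin1) and below for 2, where 20.6% and 22.2% of all tested genes did so.

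**Figure D1:**
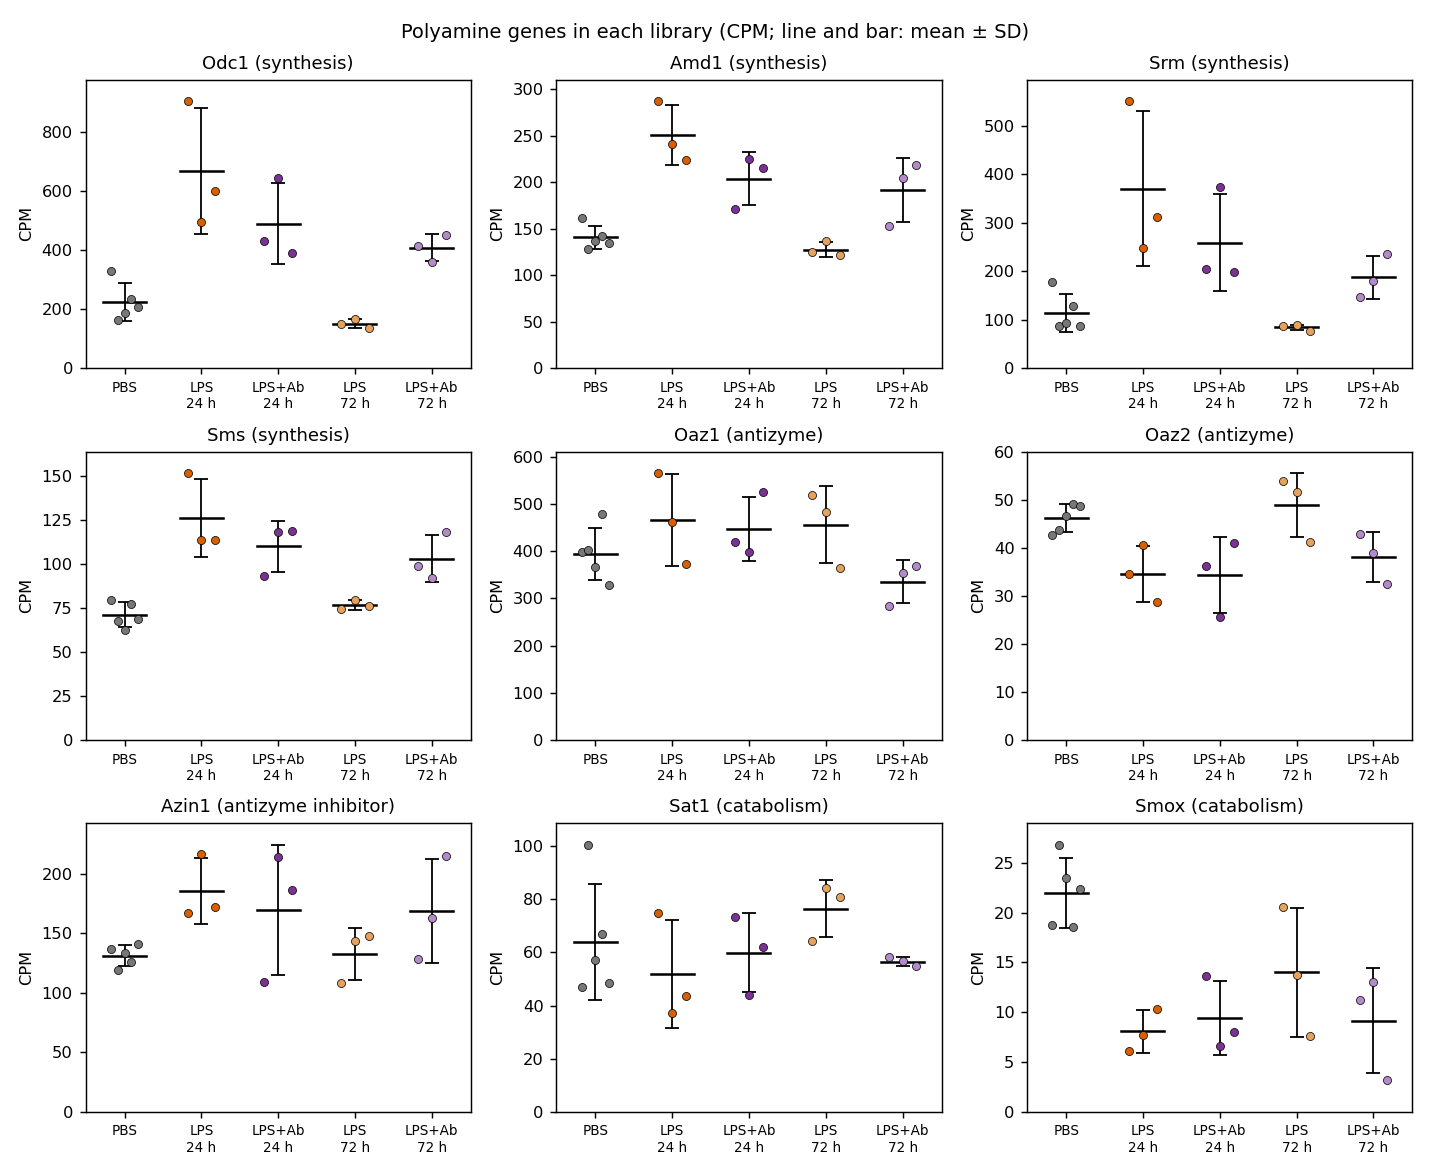
Level of each of the 9 genes in every library, in CPM, by group (points, 1 library each, with the group mean as a line and the SD as a bar; Ab is the IL-10 receptor blocking antibody). All LPS 24 h libraries of Odc1, Amd1, Srm and Sms lie above all PBS libraries, and all LPS 24 h libraries of Smox lie below them.

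Of the regulators of ornithine decarboxylase, Oaz2 passed the test and Oaz1 and Azin1 did not. Oaz1 had 399, 402, 366, 479 and 328 CPM in PBS and 566, 461 and 372 CPM in LPS 24 h, with overlapping libraries. Its log2 difference was 0.24 (SE 0.166, adjusted p = 0.268). Azin1 had 119 to 141 CPM in PBS and 167, 217 and 172 CPM in LPS 24 h, where all 3 libraries lay above all 5 of PBS. Its difference of 0.50 (SE 0.196) missed the threshold with an adjusted p of 0.0569. The 6 alternatives other than leaving out a library gave adjusted p from 0.00914 to 0.155 for it. Oaz2 had 42.7 to 49.1 CPM in PBS and 34.5, 40.6 and 28.8 CPM in LPS 24 h, and fell by 0.42 (SE 0.158, adjusted p = 0.0493). That call was lost with the replicate number as a block (adjusted p = 0.173, the highest of a range from 0.0167 over the 6 alternatives) and without any of 7 of the 8 libraries, with adjusted p up to 0.218.

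Of the catabolic genes, Smox had 18.7, 26.8, 23.5, 18.5 and 22.4 CPM in PBS and 6.12, 7.76 and 10.3 CPM in LPS 24 h. It fell by 1.44 (SE 0.404, 0.369-fold, adjusted p = 0.0119). Without library 1 of LPS 24 h the log2 change was -1.27 (adjusted p = 0.0686), the one library whose removal took the call away. Sat1, the acetyltransferase, had 46.9 to 101 CPM in PBS and 74.9, 37.2 and 43.6 CPM in LPS 24 h, with a log2 difference of -0.30 (SE 0.26, adjusted p = 0.377), or -0.65 (adjusted p = 0.0985) without library 1 of LPS 24 h.

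At 72 h after LPS alone, none of the 8 genes other than Odc1 passed the test against PBS, where 0.0201% of all tested genes did. None of these 8 had an unadjusted p below 0.05 in the edgeR test, and DESeq2 called 0. Odc1 had 149, 167 and 136 CPM, and its libraries overlapped the lowest of PBS (log2 difference -0.57, SE 0.237). Srm had 86.6, 88 and 77.2 CPM, Amd1 125, 136 and 121 CPM and Sms 74.2, 79.6 and 76.1 CPM, all overlapping PBS. For none of the 9 genes were the libraries of both groups apart, as they were for 4.96% of all tested genes (higher) and 7.01% (lower). Smox had 20.6, 13.8 and 7.61 CPM, spread from within the PBS range to well under it (log2 difference -0.65, adjusted p = 0.538). The 3 Odc1 libraries of LPS 72 h lay closer together than those of any other group.

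Between 24 h and 72 h after LPS alone, 4 of the 8 genes tested passed, 3 lower and 1 higher, where 31.1% of all tested genes did, 16.4% lower and 14.7% higher. Srm fell by 2.14 (SE 0.346, 0.227-fold, adjusted p = 0.000519), Amd1 by 0.98 (SE 0.151, 0.508-fold, adjusted p = 0.000399) and Sms by 0.72 (SE 0.146, 0.607-fold, adjusted p = 0.0021). Odc1 was 0.226-fold as high at 72 h as at 24 h (log2 -2.15, SE 0.271), given with no test, with no overlap of libraries. In 4 of the 8 genes, Srm, Amd1, Sms and Azin1, the highest 72 h library lay below the lowest 24 h library, and in 1, Oaz2, the reverse held. Among all tested genes 23.0% were apart and lower in this way, and 22.4% apart and higher. Oaz2 rose by 0.50 (SE 0.175, 1.41-fold, adjusted p = 0.0407), a call lost under 3 of the 6 alternatives, with adjusted p from 0.0175 to 0.0718, and without any of 4 of the 6 libraries, with adjusted p up to 0.183. Without library 1 of LPS 24 h, Srm fell by 1.72 (adjusted p = 0.00289), Amd1 by 0.85 (adjusted p = 0.00227) and Sms by 0.55 (adjusted p = 0.0119), and the log2 difference of Odc1 was -1.85. Oaz2 then no longer passed (0.51, adjusted p = 0.0798), while Sat1, at 0.56 (adjusted p = 0.151) with all libraries, was at 0.94 (adjusted p = 0.0335). The summed HSPC markers differed between these groups too, at 922 to 1089 CPM at 24 h and 1641 to 2174 CPM at 72 h, and their part in the result was not tested.

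With the antibody, the 24 h comparison with PBS gave 4 of the 8 genes other than Odc1, 3 higher and 1 lower, against 24.2% of all tested genes, 11.7% higher and 12.5% lower. All 3 libraries lay above those of PBS for 3 of the 8 and below for 2 (Oaz2 and Smox), against 14.2% of all tested genes higher and 16.7% lower. Odc1 had 429.9, 645 and 391 CPM, all above the highest PBS library (log2 difference 1.13, SE 0.228, 2.19-fold). Srm had 204, 374.5 and 198 CPM and rose by 1.18 (SE 0.291, 2.26-fold, adjusted p = 0.0121). Amd1 had 171, 225 and 216 CPM and rose by 0.54 (SE 0.132, adjusted p = 0.0119), and Sms had 93.3, 118 and 119 CPM and rose by 0.63 (SE 0.128, adjusted p = 0.00588). Smox had 13.7, 6.64 and 8.05 CPM and fell by 1.22 (SE 0.4, 0.431-fold, adjusted p = 0.0384). Library 2 was the highest for Odc1 and Srm. Without it 1 of the 8 passed, Sms, since the adjusted p of Amd1 became 0.0693, that of Srm 0.0958 and that of Smox 0.157.

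At 72 h with the antibody, Amd1 and Sms were higher than in PBS and Smox was lower. In this comparison 3 of the 8 genes other than Odc1 passed, 2 higher and 1 lower, against 13.2% of all tested genes, 6.81% higher and 6.43% lower. Odc1 had 412.5, 359 and 451 CPM, each above all 5 PBS libraries (log2 difference 0.87, SE 0.228, 1.82-fold). Sms had 98.8, 92.4 and 118 CPM, also above all PBS libraries, and was higher by 0.53 (SE 0.128, 1.45-fold, adjusted p = 0.018). Amd1 had 153, 204 and 218.5 CPM, and its lowest library lay within the PBS range (0.45, SE 0.132, 1.36-fold, adjusted p = 0.0372). Smox had 11.2, 13.1 and 3.18 CPM and was lower (log2 difference -1.27, SE 0.402, 0.414-fold, adjusted p = 0.0484). Srm had 147, 180.2 and 235 CPM and missed the threshold (0.71, SE 0.292, adjusted p = 0.108). The libraries were apart for 2 of the 8 genes, 1 higher (Sms) and 1 lower (Smox), against 13.4% of all tested genes higher and 13.6% lower. These calls depended on single libraries. Without PBS library 2, 3, 4 or 5 the count of the 8 was 1, and without antibody library 3 it was 0.

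**Figure D2:**
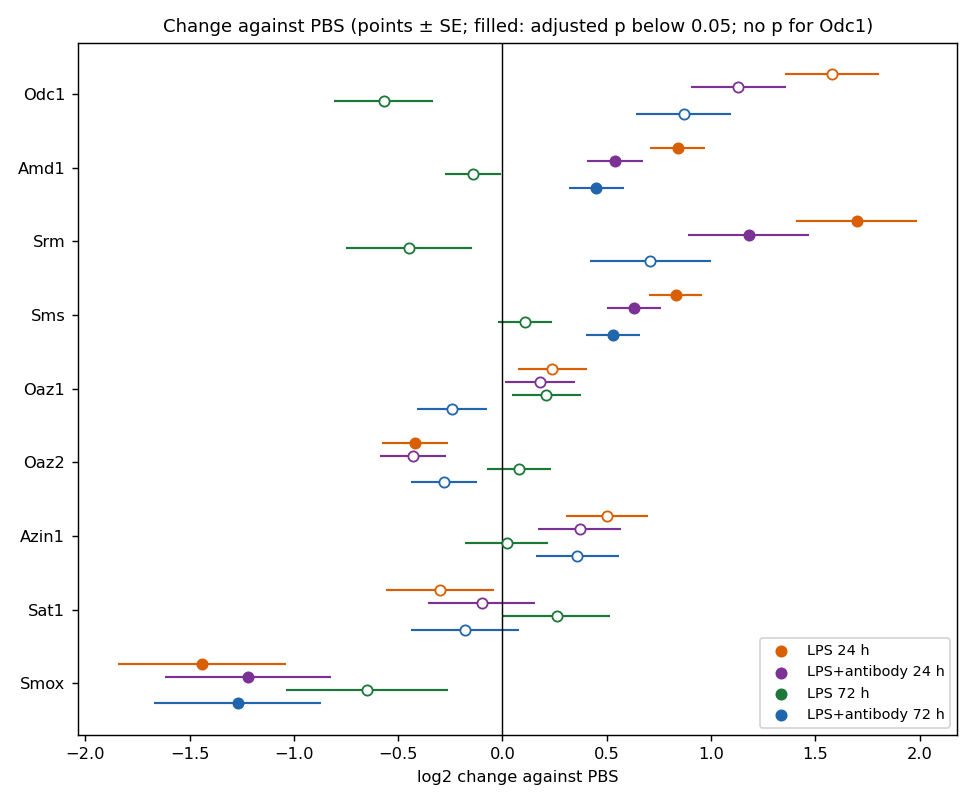
Log2 change against PBS for the 9 genes in the 4 LPS-injected groups (points, with the SE as a line, filled where the adjusted p is below 0.05, Odc1 drawn unfilled since no p is given for it). The points of Odc1, Amd1, Srm and Sms lie to the right of 0 in every group except LPS 72 h, where Odc1 is at -0.57, Amd1 at -0.14, Srm at -0.45 and Sms at 0.11.

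The question of what blocking the IL-10 receptor changed is answered most directly by LPS with the antibody against LPS alone at the same time. At 24 h, 0 of the 8 genes tested passed with edgeR, 0 had an unadjusted p below 0.05 and DESeq2 called 0. Of all tested genes, edgeR called 0%. The log2 difference of Odc1 was -0.45 (SE 0.26, no test), and those of Srm, Amd1 and Sms were -0.52, -0.30 and -0.20. The libraries with and without the antibody overlapped for all 9 genes, while they were apart and higher for 1.88% of all tested genes and lower for 1.27%. Without library 1 of LPS 24 h the log2 differences were -0.15 for Odc1, -0.10 for Srm, -0.17 for Amd1 and -0.03 for Sms. Sat1 was at 0.21 with all libraries and at 0.58 without it, with an adjusted p of 1 in both.

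At 72 h, 2 of the 8 genes tested passed, Amd1 and Srm, both higher with the antibody, against 15.1% of all tested genes, 8.64% higher and 6.48% lower. Srm had 86.6, 88 and 77.2 CPM with LPS alone and 147, 180.2 and 235 CPM with the antibody, and was higher by 1.16 (SE 0.337, 2.23-fold, adjusted p = 0.0314). Amd1 had 125, 136 and 121 CPM with LPS alone and 153, 204 and 218.5 CPM with the antibody, and was higher by 0.59 (SE 0.15, 1.51-fold, adjusted p = 0.0168). Neither gene's libraries overlapped. Sms was higher in all 3 antibody libraries as well, with a log2 difference of 0.43 (SE 0.145, adjusted p = 0.0583). Odc1 had 149, 167 and 136 CPM with LPS alone and 412.5, 359 and 451 CPM with the antibody, a description of 2.7-fold (log2 1.43, SE 0.265). Of the 8 genes tested, 3 (Srm, Amd1 and Sms) had every antibody library above every library of LPS alone, which 17.1% of all tested genes did, and Sat1 had every one below, which 16.1% did. Without library 1 of LPS 72 h, or without antibody library 3, neither Amd1 nor Srm passed, with adjusted p of 0.0733 and 0.0994, and of 0.0629 and 0.091. Without library 2 or library 3 of LPS 72 h, Srm did not pass (adjusted p of 0.0795 and 0.0653).

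None of the other members passed at 72 h. Oaz1 had 520.1, 484 and 365 CPM with LPS alone and 283, 353 and 369 CPM with the antibody (log2 difference -0.45, adjusted p = 0.113). Oaz2 differed by -0.36 (adjusted p = 0.163), Azin1 by 0.34 (adjusted p = 0.299) and Smox by -0.62 (adjusted p = 0.342). Sat1 had 64.3, 84.4 and 80.8 CPM with LPS alone and 58.2, 56.7 and 54.8 CPM with the antibody, with no overlap and an adjusted p of 0.31 (log2 difference -0.44). Erythroid markers varied strongly among the antibody libraries at 72 h, with summed levels of 860, 149 and 11.2 CPM in libraries 1 to 3. With LPS alone they summed to 7.17 to 106 CPM. The neutrophil markers summed to 6480 to 13213 CPM with LPS alone and 3772 to 12631 CPM with the antibody, and none of the 8 neutrophil or 8 erythroid genes passed. The T and NK markers summed to 153 to 212 CPM with LPS alone and 41 to 180 CPM with the antibody, with 2 of 6 lower, and 1 of 8 HSPC and 1 of 8 monocyte and macrophage markers passed as lower. Of the 8 monocyte and macrophage markers, 6 had a log2 difference above 0 and 2 below (median 2.25). Their sums overlapped, at 204 to 359 CPM with LPS alone and 142 to 354 CPM with the antibody. The part of these markers in the result was not tested.

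**Figure D3:**
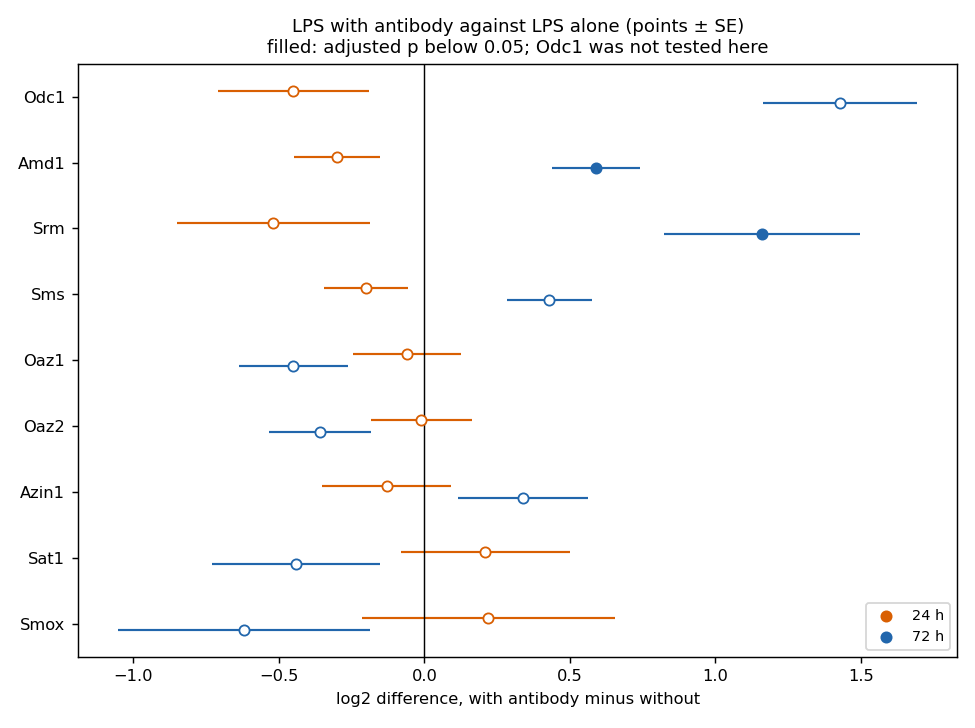
Log2 difference of LPS with the antibody minus LPS alone for the 9 genes at 24 h and 72 h (points, with the SE as a line, filled where the adjusted p is below 0.05, Odc1 not tested). The 4 synthesis genes lie to the left of 0 at 24 h and to the right at 72 h, with Odc1 at -0.45 and 1.43.

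In the antibody groups, the change from 24 h to 72 h passed for 0 of the 8 genes tested, where edgeR called 0% of all tested genes. With an unadjusted p below 0.05 there was 1 of the 8, Oaz1 (log2 difference -0.42), and DESeq2 called 0. Oaz1 was also the one gene of the 9 whose libraries were apart, lower at 72 h, against 4.38% of all tested genes lower and 4.87% higher. The log2 difference of Odc1 was -0.26 (SE 0.26, no test), that of Srm -0.47, and those of Amd1 and Sms -0.09 each. With LPS alone the same interval had given -2.15 for Odc1. The difference between the antibody's effect at 72 h and that at 24 h was 1.88 for Odc1 (SE 0.371, 3.69-fold), 1.68 for Srm (SE 0.473), 0.89 for Amd1 (SE 0.211) and 0.63 for Sms (SE 0.205). The rule named Odc1 for its value, and all of these values are given with no test. When library 1 of LPS 24 h was left out they were 1.57 for Odc1, 1.24 for Srm, 0.75 for Amd1 and 0.44 for Sms. The regulators and catabolic genes had -0.39 (Oaz1), -0.35 (Oaz2), 0.47 (Azin1), -0.64 (Sat1) and -0.84 (Smox), and without that library Sat1 had -1.04 and Oaz1 -0.58.

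The balance of ornithine decarboxylase and its antizyme in a library needs no scaling between libraries, since both counts come from the same library. The ratio of Odc1 reads to Oaz1 reads also depends on transcript length and is compared between libraries only. In PBS it was 0.822, 0.402, 0.512, 0.486 and 0.634. In LPS 24 h it was 1.6, 1.07 and 1.62, and in LPS plus antibody 24 h 1.02, 1.62 and 0.744. In LPS 72 h it was 0.286, 0.345 and 0.373, below all PBS libraries, and in LPS plus antibody 72 h 1.46, 1.02 and 1.22, above all of them. Group means were 0.571 ± 0.163 (SD, n = 5), 1.43 ± 0.309, 1.13 ± 0.448, 0.335 ± 0.0444 and 1.23 ± 0.22 (n = 3 each). Srm reads per Oaz1 read had means of 0.289, 0.784, 0.601, 0.187 and 0.555 in the same groups, again lowest in LPS 72 h and highest in LPS 24 h.

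**Figure D4:**
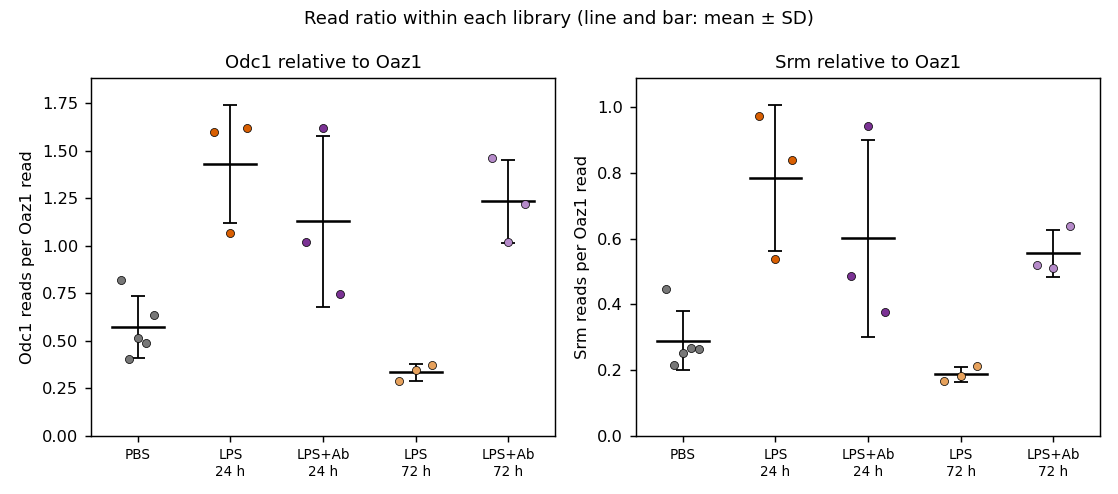
Reads of Odc1 (left) and of Srm (right) per Oaz1 read in each library, by group (points, with the group mean as a line and the SD as a bar). For Odc1, the LPS 72 h libraries lie between 0.286 and 0.373 and the antibody 72 h libraries between 1.02 and 1.46.

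A list of 30 other genes, called the pathway list, held genes of the pathway and the transcription factors Myc, Mycn and Max. Of these, 26 could be tested (Arg2, Agmat, Sat2 and Slc12a8 could not). In LPS 24 h against PBS, 13 rose and 4 fell (50% and 15.4%, against 19.1% and 18.5% of all tested genes), with a median log2 change of 0.47 against -0.03 over all tested genes. Leaving out library 1 of LPS 24 h, 9 rose and 3 fell, with a median of 0.37. The transcription factors are in these counts. Myc (0.57, adjusted p = 0.034) and Max (0.39, adjusted p = 0.0189) rose and Mycn fell (-1.79, adjusted p = 0.0046). Without library 1 of LPS 24 h, Myc and Max did not pass (adjusted p of 0.0955 and 0.116) and Mycn did (0.0307). Eif5a, the translation factor that carries hypusine, rose by 1.13 (SE 0.16, 2.18-fold, adjusted p = 0.000485), from 867 ± 132 CPM (SD, n = 5) to 1893 ± 486 CPM (n = 3). Mtap, the phosphorylase that recovers methylthioadenosine left by the aminopropyl transfers, rose by 0.87 (SE 0.158, 1.83-fold, adjusted p = 0.0011). Aldh18a1, which makes a precursor of proline and ornithine, rose by 0.68 (SE 0.126, 1.61-fold, adjusted p = 0.00121). Atp13a2, a lysosomal polyamine exporter, fell by 1.23 (SE 0.178, 0.427-fold, adjusted p = 0.000487), from 182 ± 21.4 to 77.5 ± 16.9 CPM. Without that library Eif5a rose by 0.91, Mtap by 0.87 and Aldh18a1 by 0.71 and Atp13a2 fell by 1.05, all still past the threshold. By group, 3 of the 4 genes of hypusine formation and 3 of the 5 of methylthioadenosine salvage rose, beside the 19.1% of all tested genes that did.

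With the antibody at 24 h, 10 of the 26 rose against PBS and 4 fell (38.5% and 15.4%, against 11.7% and 12.5% of all tested genes), so the share that fell was near that of all genes. Without antibody library 2 the numbers were 2 and 2, and without PBS library 5 they were 6 and 3. The genes with the smallest adjusted p were Atp13a2 (-0.98, adjusted p = 0.00433), Eif5a (0.81, adjusted p = 0.00535), Aldh18a1 (0.58, adjusted p = 0.00759) and Mycn (-1.77, adjusted p = 0.0106), a Myc family transcription factor. At 72 h with the antibody, 3 were higher and 3 lower than PBS (11.5% each way, against 6.81% and 6.43% of all tested genes). Without antibody library 3 the numbers were 0 and 1, and without PBS library 2 they were 1 and 2. The genes were led by Atp13a2 (-0.99, adjusted p = 0.00687), Eif5a (0.70, adjusted p = 0.015), Mtap (0.62, adjusted p = 0.0222) and Slc18b1 (-1.13, adjusted p = 0.0226), a vesicular polyamine transporter. At 72 h with LPS alone 0 of the 26 passed with edgeR, 5 had an unadjusted p below 0.05 and DESeq2 called 2, both lower.

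With LPS and the antibody against LPS alone at 72 h, 6 of the 26 were higher and 1 lower (23.1% and 3.85%, against 8.64% and 6.48% of all tested genes), with a median log2 difference of 0.26 against 0.0059 over all tested genes. With library 1 of LPS 72 h left out, 3 were higher and 0 lower. The 6 that were higher with all libraries include Myc (0.69, SE 0.225, adjusted p = 0.0497). Aldh18a1 was higher by 1.02 (SE 0.145, 2.02-fold, adjusted p = 0.00125), at 140 ± 23.4 against 69 ± 1.4 CPM (SD, n = 3). Mtap was higher by 1.02 (SE 0.182, adjusted p = 0.00328) and Slc3a2, the shared heavy chain of amino acid transporters, by 0.95 (SE 0.176, adjusted p = 0.00395). Atp13a2 was lower (log2 difference -0.84, SE 0.191, 0.56-fold, adjusted p = 0.0104). At 24 h the same comparison called 0 of the 26 with edgeR, with 0 at an unadjusted p below 0.05 and 0 called by DESeq2. From 24 h to 72 h after LPS alone 12 fell and 2 rose (46.2% and 7.69%, against 16.4% and 14.7% of all tested genes), with a median of -0.50 against 0.02 over all tested genes. The numbers without library 1 of LPS 24 h were 9 and 2. With all libraries, the genes leading the list by adjusted p, Aldh18a1 (-1.29), Mtap (-1.26), Slc3a2 (-1.17) and Eif5a (-1.10), were all lower. Between the antibody groups 0 of the 26 passed with edgeR (2 at an unadjusted p below 0.05, 0 by DESeq2).

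**Figure D5:**
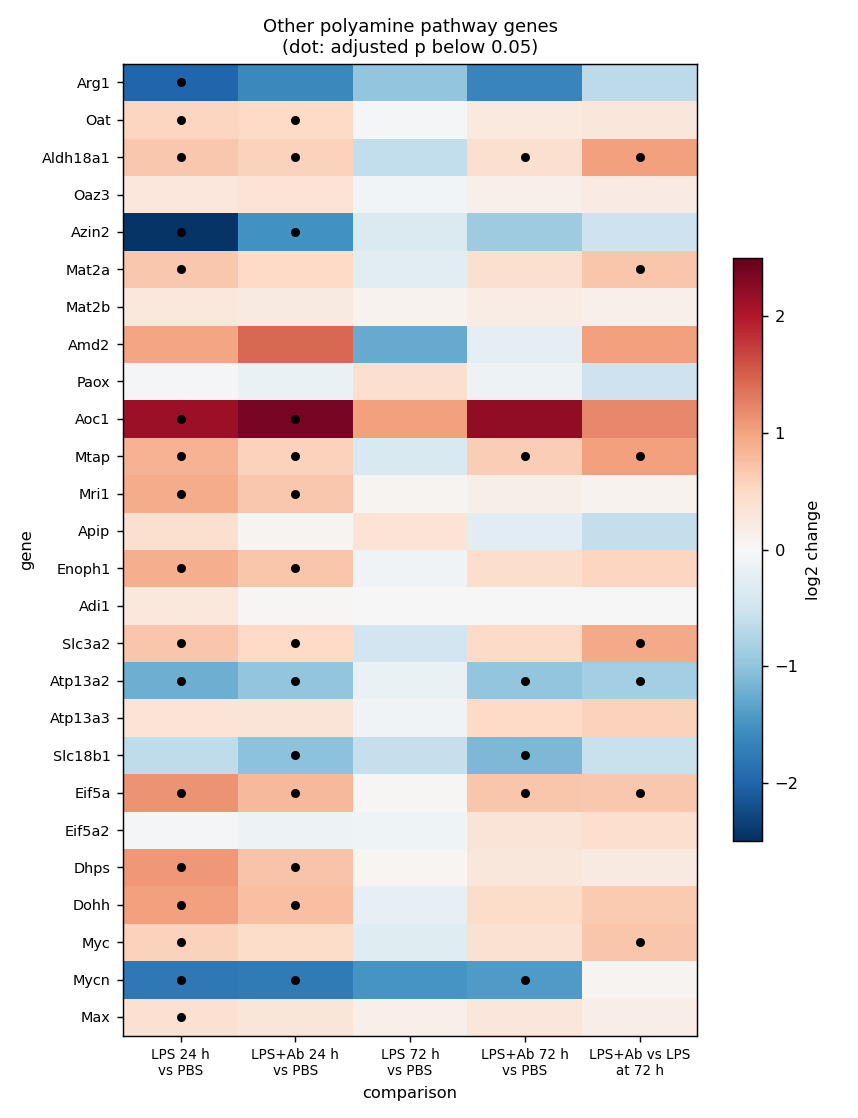
Log2 change of the 26 genes of the pathway list tested, Myc, Mycn and Max among them (rows), in 5 comparisons (columns, the last being LPS with the antibody against LPS alone at 72 h), with colour for the log2 change and a dot where the adjusted p is below 0.05. The LPS 72 h column has no dot.

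The genes whose levels over the 17 libraries were most like those of Odc1, by Pearson's r of log2 CPM among 7452 genes of at least median expression, were Atad3a (r = 0.989), Lyar (0.989), Usp39 (0.988), Eif3b (0.988) and Pwp1 (0.986). These r values come from libraries that share their groups and their scaling, and are a description. Lyar had mean levels of 64.4, 173, 128, 49.3 and 123 CPM in PBS, LPS 24 h, LPS plus antibody 24 h, LPS 72 h and LPS plus antibody 72 h, and Eif3b, a subunit of a translation initiation factor, had 409, 832, 680, 348 and 614 CPM. Among the members, Srm came 43rd in that ranking (r = 0.976), with Amd1 at 0.933, Sms at 0.905 and Azin1 at 0.599. Oaz1 had 0.0854, Sat1 -0.484, Smox -0.628 and Oaz2 -0.785.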

How the data were processed

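RNA-seq of 17 libraries of sorted mouse HSPC was analysed from the table of raw read counts per gene symbol that the authors deposited. Per the submitters' processing notes, HISAT2 2.2.0, Subread with featureCounts 2.1.1, R 4.3.2 and DESeq2 were used on build GRCm38. The annotation, the strand setting and the handling of multiply mapping reads are not given in the sources used here. Columns were matched to samples by name.

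Genes were kept with filterByExpr (minimum count 10, minimum total 15), which left 14920 genes holding 99.9% of counts. All 17 libraries were fitted in one edgeR 4.0.16 quasi-likelihood model (R 4.3.3) with TMM scaling and a mean per group. P-values were adjusted by Benjamini-Hochberg over all genes tested, with a threshold of 0.05. Libraries of 1 group differed by more than read sampling alone, which would give a chi-square per degree of freedom near 1. Between their counts it was 11.4 to 86 over 22 pairs. DESeq2 1.42.0 and other scalings, filters and designs, and leaving out each library, were the alternatives. The members and lists were chosen with earlier results of these data known. Named were all members, the 5 genes most correlated with Odc1, and up to 4 called pathway genes per comparison with the smallest adjusted p.

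Libraries with the same replicate number deviated together in LPS 24 h against PBS, with correlations of 0.191, 0.188 and 0.158 for the 3 pairs. With the number as a block, 4 of the 8 genes other than Odc1 passed there, and Oaz2 did not. No library pair held identical values. Simulated data for LPS 24 h against PBS had 14737 genes tested, with 100 genes changed 2-fold and 100 changed 4-fold. The fit called 47% of those changed 2-fold and 85% of those changed 4-fold.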

Additional observations from a re-analysis of the deposited data

How the results depend on the processing

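Counts of genes that passed, of the 8 other than Odc1, were recomputed. Among the LPS groups this was done under each alternative, and against PBS with the replicate number as a block and leaving out each library. With the replicate number as a block the count fell to 1 for LPS plus antibody 24 h against PBS, to 0 for LPS plus antibody 72 h against PBS and to 1 for LPS plus antibody against LPS at 72 h. Fitting only the groups compared also gave 1 in the last. Leaving out each library in turn, the count of the 8 was 3 to 5 for LPS 24 h against PBS. For the antibody groups against PBS it was 1 to 5 at 24 h and 0 to 3 at 72 h. With Odc1 counted too, the ranges against PBS were 4 to 6, 2 to 6 and 0 to 4, in the same order. The count of the 8 was 0 to 3 for the antibody against LPS at 72 h and 3 to 4 for LPS at 72 h against 24 h. In each of the 7 comparisons other than LPS 24 h against PBS, at least 1 same-numbered pair had a correlation under 0.1 (the lowest, -0.365, with the antibody against LPS at 24 h). The highest were 0.723 and 0.697, for pairs 1 and 3 of LPS plus antibody at 72 h against 24 h, where pair 2 had -0.0217. Some same-numbered libraries thus deviated together, but the numbers are not known to pair the libraries. No direction of a called value reversed under any alternative run. Of the single-gene results with a test, 385 kept their side of the threshold under the alternatives other than leaving out a library, 18 lost the call and 5 gained it. Leaving out a library, 433 kept it, 42 lost the call and 5 gained it. These totals include Odc1 against PBS, whose own p-values are not given. Of those with no test, 3 moved by more than the spread between libraries, the antibody-by-time values of Srm, Sms and Sat1 without library 1 of LPS 24 h. Counts of the pathway list, and of the 8 genes against PBS, were recomputed after seeing the data. With the block the pathway list gave 9 and 2 for the antibody groups against PBS at 24 h and 72 h. Upper-quartile scaling moved the median of all genes in LPS 24 h against PBS from -0.03 to -0.16 on the log2 scale. With 3 libraries a group, changes of 2-fold or less can be missed. In the simulation of LPS 24 h against PBS, 100 genes were changed 2-fold and 100 were changed 4-fold, and 47% of the 2-fold changes were called. In the real comparison 37.6% of tested genes passed, so the 47% need not hold there. Comparisons of 3 against 3 libraries were not simulated.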

Other observations

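Within the groups, the library with the most Odc1 was also the one with the most Amd1 and the most Srm in 5 of 5 groups, and the one with the most Sms in 4 of 5. For Oaz1, Azin1 and Sat1 this was so in 2 of 5 groups each, and for Oaz2 and Smox in 0 of 5. These are ranks within groups of 3 to 5 libraries, with no test. The library with the most Odc1 in LPS 24 h was library 1, whose low scaling factor of 0.799 raises all its CPM values. Its unscaled Amd1 count, 3097, was the lowest of that group, beside 3513 and 3516.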
